A study of Homo sapiens with 4 samples.

Results

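The genes described here cut tRNA or modify the anticodon region of the lysine tRNA. They are 9 of the 62655 gene IDs in the count table and are listed by name for their function; the rule sets no threshold on a measured value. ANG, RNH1 and ELAC2 act in tRNA cleavage. CDKAL1, ELP3, CTU1, CTU2, ALKBH8 and URM1 modify the anticodon region of tRNA-Lys. All 9 were found in the table, and all 9 passed the filter on low counts. The libraries were made from Hep G2, an established line from a human liver tumour that serves as a hepatocyte model. The cells had been plated at 150000 per ml and kept from 24 h later in medium rich in oleic acid, which loads them with lipid. In the mimic group (2 libraries) an oligonucleotide mimic of LysTTT-5'tRF was transfected 24 h after that, and in the control group (2 libraries) a negative control oligonucleotide was used with the same reagent; RNA was taken after another 24 h. All libraries therefore share the lipid loading and the transfection.

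A tRNA-derived fragment of this kind is the front part of a tRNA, set free when a nuclease cuts the tRNA. In stressed human cells the secreted ribonuclease angiogenin, the product of ANG, cuts tRNAs in the anticodon loop and leaves 5' and 3' parts, and it is held in check in the cytosol by the ribonuclease inhibitor RNH1. The loop of the lysine tRNA with anticodon UUU is heavily modified. Elongator, whose catalytic subunit is ELP3, starts a side chain on the wobble uridine, ALKBH8 methylates it, and CTU1 and CTU2 place sulfur delivered by URM1 on the same base. CDKAL1 adds a methylthio group to the adenosine on the 3' side of the anticodon. These marks steady the pairing with lysine codons in translation. The libraries were poly(A)-selected, so they measured the mRNAs of these enzymes and neither tRNAs nor fragments.

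The lysine tRNA of the mitochondrial genome is shown because it carries the same anticodon, followed by an adenosine. It shows only where these bases lie. Its wobble base is the target of the mitochondrial enzymes MTO1, GTPBP3 and TRMU, described below. This tRNA is not shown as a substrate of the members and is not known here to be the source of the mimic. It is encoded on chromosome M of GRCh38, positions 8295 to 8364 on the plus strand, and is 70 bases long. Capitals mark the anticodon, bases 29 to 31 from the 5' end. The first capital is the wobble base, and the base after the capitals, number 32, is the adenosine on its 3' side.
MT-TK: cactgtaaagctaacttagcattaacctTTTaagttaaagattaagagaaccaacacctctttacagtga

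Reads counted to genes ranged from 15430539 to 18961222 per library. The hepatocyte markers ALB, APOA1, APOB, AFP, TTR and SERPINA1 were detected in every library, with APOB between 25092 and 25205 CPM (counts per 1000000, over library sizes scaled by TMM). Of these 6, only ALB passed the test. It was higher with the mimic, at 10192 and 9760 CPM, against 9033 and 7991 CPM in the control (log2 fold change 0.23, edgeR, Benjamini-Hochberg adjusted p = 0.0109). Both mimic libraries also lay above both controls for TTR (0.26, adjusted p = 0.119) and AFP (0.13, adjusted p = 0.268, same edgeR test). The groups overlapped for APOA1, APOB and SERPINA1. The part of these differences in the results below was not tested. Of 8 markers of other cell types 4 had reads in every library, and PTPRC, COL1A2 and KRT7 had 0 reads in all. These 8 summed to 1632 and 1542 CPM in the mimic libraries, against 1489 and 1486 CPM in the control libraries. Nearly all of that was the lysozyme gene LYZ; the other 7 summed to 12.3 and 12.7 CPM with the mimic, against 12.1 CPM in each control library. In bulk RNA, fewer cells of a kind and less RNA per cell cannot be told apart. Separate cultures are not stated in the labels, and every p-value therefore reflects only how these libraries vary, which may be technical. Over all 14464 genes tested, 50 differed between mimic and control, or 0.346% (quasi-likelihood test of edgeR, Benjamini-Hochberg adjusted p under 0.05), with 0.277% higher and 0.0691% lower.

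None of the 9 genes passed the test between mimic and control (edgeR), against 0.346% of all genes. At an unadjusted p under 0.05 there were 2, URM1 and CTU2, against 9.43% of all genes tested. DESeq2 and limma voom also called 0 of the 9, with 0 and 2 at an unadjusted p under 0.05, although DESeq2 gave an adjusted p for only 2 of them. The median log2 fold change of the 9 genes was 0.00, with 5 above 0 and 4 below, and the median of all genes tested was also 0.00. Mimic and control stood apart in 4 of the 9 genes (CDKAL1, ELP3, CTU2 and URM1), where the same held for 39.1% of all genes. The intervals set what these libraries leave possible. The narrowest belonged to RNH1, with fold changes from 0.911 to 1.10, and the widest to CTU1, with fold changes from 0.609 to 1.09.

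**Figure D1:**
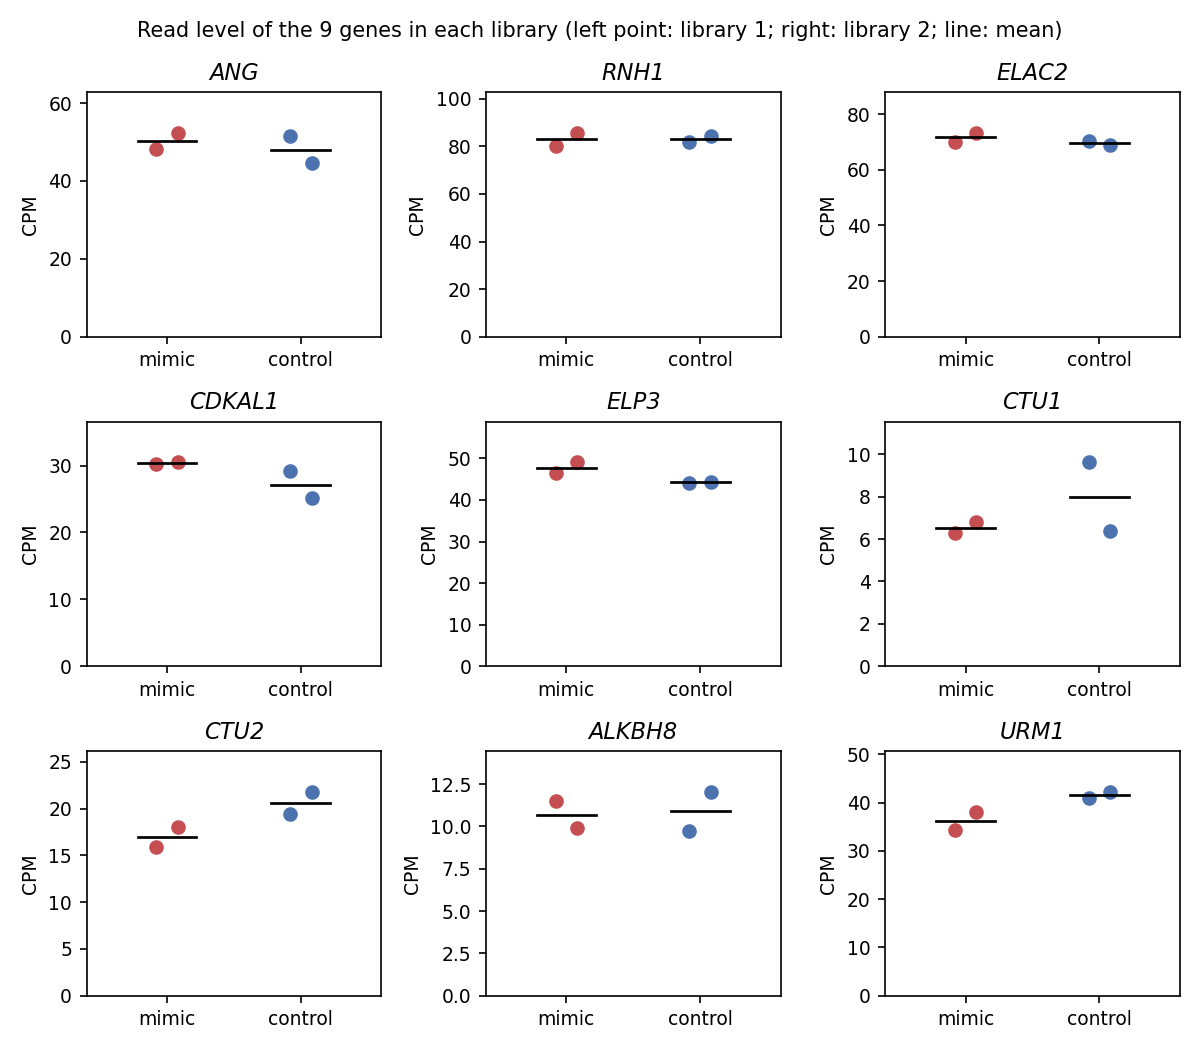
Read level (CPM, linear axes from 0) of each of the 9 genes in the mimic and control libraries; points are libraries 1 (left) and 2 (right) of a group and lines are means. The groups overlap for ANG, RNH1, ELAC2, CTU1 and ALKBH8 and stand apart for CDKAL1, ELP3, CTU2 and URM1, and none of the 9 passed the test.

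ANG, RNH1 and ELAC2 differed little between the groups. ANG stood at 48.3 and 52.4 CPM in the mimic libraries, against 51.4 and 44.6 CPM in the control libraries. Mimic library 2 was highest and control library 2 lowest, and the groups overlapped. On the log2 scale ANG differed by 0.07 (SE 0.08, 95% interval -0.10 to 0.24; edgeR, Benjamini-Hochberg adjusted p = 0.867). Without control library 2, the lowest of the 4, the ANG value was -0.03. RNH1, the inhibitor, stood at 80.3 and 85.7 CPM with the mimic, against 81.6 and 84.5 CPM in the control. The control values lay between the mimic values. The RNH1 log2 fold change was 0.00 (95% interval -0.13 to 0.14, adjusted p = 0.998 by the same edgeR test). ELAC2 encodes the long form of tRNase Z, which removes the trailer from the 3' end of tRNA precursors in the nucleus and in mitochondria. It stood at 70.0 and 73.4 CPM in the mimic libraries, against 70.6 and 69.0 CPM in the control libraries, a log2 fold change of 0.04 (-0.10 to 0.18, adjusted p = 0.915 by edgeR).

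The mRNA ratio of the nuclease to its inhibitor overlapped between the groups. Per length of exon sequence, ANG stood at 310% and 315% of RNH1 in the mimic libraries, against 325% and 272% in the control libraries. The mimic values lay within the span of the control values. These percentages use the whole exon length of ANG, part of which is shared with other genes. Per kb of exon sequence not shared on the same strand, ANG stood at 75.6 and RNH1 at 11.3 CPM. The size of the ratio thus depends on the length used, which is the same for every library.

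The counts of ANG carry an uncertainty that those of RNH1 and ELAC2 do not. ANG (ENSG00000214274) lies on chromosome 14, positions 20684177 to 20698971 of GRCh38 in GENCODE 29, nested with RNASE4, another secreted ribonuclease of the RNase A family. Of the 1430 bases of annotated ANG exon sequence, 47.2% are also RNASE4 exon sequence, and 54.5% are shared on the same strand with RNASE4 or a further annotated gene. Reads from a shared stretch cannot be given to either gene by counting. RNASE4 stood at 6.34 and 4.79 CPM with the mimic, against 5.59 and 3.60 CPM in the control, so its groups overlapped as those of ANG did. In both genes control library 2 was the lowest of the 4. The RNASE4 log2 fold change was 0.25, with an interval from -0.25 to 0.75 (adjusted p = 0.826, edgeR, Benjamini-Hochberg). RNH1 (ENSG00000023191; chromosome 11, 494512 to 507300) and ELAC2 (ENSG00000006744; chromosome 17, 12992391 to 13018187) share no exon sequence with other annotated genes on either strand.

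The first start region of ANG is shown because a tRNA gene lies just ahead of this gene for a tRNA nuclease. RefSeq (GRCh38.p14) gives ANG 3 start windows, of which 2 are listed with identical coordinates for RNASE4; windows were matched by symbol for 7 of the 9 genes. The 250 bases before the first start, chr14:20683927-20684176 on the plus strand, hold a whole proline tRNA gene, TRP-TGG3-2, at 20684016 to 20684087 (capitals). The ANG transcript begins at 20684177, the base after the stretch shown. In the annotation used for the exon overlaps, RNASE4 starts at 20684100 on the same strand, inside this stretch. The tRNA gene thus lies ahead of RNASE4 as well, and the stretch is not upstream sequence of ANG alone. Which start was used was not measured, and the tRNA itself is not captured by poly(A) selection.
ANG first start: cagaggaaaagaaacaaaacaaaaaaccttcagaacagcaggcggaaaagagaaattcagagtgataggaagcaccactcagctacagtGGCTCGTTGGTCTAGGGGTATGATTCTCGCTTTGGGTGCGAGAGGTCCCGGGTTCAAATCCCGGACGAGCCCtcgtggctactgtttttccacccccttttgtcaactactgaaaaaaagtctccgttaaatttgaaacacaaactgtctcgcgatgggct

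Of the 6 modifiers 0 passed the test in edgeR, and 0 in limma voom. At an unadjusted p under 0.05 there were 2 of the 6 in edgeR, 2 in limma voom and 0 in DESeq2, against 9.43% of all genes in edgeR; DESeq2 gave none of the 6 an adjusted p. There were 2 above 0 and 4 below, and the median log2 fold change was -0.11. ELP3 (ENSG00000134014; chromosome 8, 28089673 to 28191156), the Elongator subunit that carries the chemistry of the side chain, stood at 46.5 and 49.1 CPM in the mimic libraries, against 44.1 and 44.4 CPM in the control libraries. The groups did not overlap, but the ELP3 log2 fold change was 0.11 with an interval from -0.05 to 0.28 (edgeR, Benjamini-Hochberg adjusted p = 0.704). ALKBH8 (ENSG00000137760; chromosome 11, 107502726 to 107565746), the methyltransferase that completes the side chain, stood at 11.5 and 9.90 CPM with the mimic, against 9.75 and 12.05 CPM in the control. Each group held 1 high and 1 low value, and the log2 fold change was -0.03 (-0.37 to 0.30, adjusted p = 0.981 by edgeR).

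The sulfur branch gave the members with the smallest p. URM1 (ENSG00000167118; chromosome 9, 128371319 to 128392016), a small protein related to ubiquitin that carries the sulfur, stood at 34.3 and 38.1 CPM in the mimic libraries, against 40.9 and 42.2 CPM in the control libraries. Both mimic libraries were below both controls. URM1 thus had a log2 fold change of -0.20 (SE 0.09, 95% interval -0.37 to -0.02; edgeR, unadjusted p = 0.0345, Benjamini-Hochberg adjusted p = 0.489). CTU2 (ENSG00000174177; chromosome 16, 88706463 to 88715386), a subunit of the enzyme that places the sulfur, stood at 15.9 and 18.0 CPM with the mimic, against 19.4 and 21.8 CPM in the control. Its mimic libraries were again both below the controls, and its log2 fold change was -0.27 (SE 0.12, interval -0.52 to -0.02; unadjusted p = 0.0354, adjusted p = 0.492 by edgeR). Without mimic library 1, URM1 stood at -0.13 (unadjusted p = 0.249) and CTU2 at -0.19 (unadjusted p = 0.208) in edgeR, and 0 of the 9 members had an unadjusted p under 0.05. CTU1 (ENSG00000142544; chromosome 19, 51097606 to 51108370), its catalytic partner, stood at 6.27 and 6.81 CPM in the mimic libraries, against 9.63 and 6.40 CPM in the control libraries. Only control library 1 was high, and control library 2 lay between the mimic values. The CTU1 log2 fold change of -0.29 (-0.71 to 0.13, adjusted p = 0.705 by edgeR) became 0.04 without control library 1. Without control library 2 it became -0.55. The CTU1 counts were low, from 96 to 162 reads per library.

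The mRNA ratio of the partners CTU1 and CTU2 differed more between the control libraries than between the mimic libraries. It was highest in control library 1 and lowest in control library 2. Per length, CTU1 stood at 66.9% and 63.9% of CTU2 with the mimic, against 84.1% and 49.7% in the control. The control values spanned the mimic values. Of URM1 exon sequence 12.6% is shared with another annotated gene on the same strand, and of CTU2 exon sequence 9.71% lies opposite PIEZO1 or another gene, so part of their counts is uncertain.

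CDKAL1 (ENSG00000145996; chromosome 6, 20534457 to 21232404) encodes the methylthiotransferase that acts beside the anticodon and is also known as a gene linked to the risk of type 2 diabetes. It stood at 30.2 and 30.5 CPM in the mimic libraries, against 29.2 and 25.1 CPM in the control libraries. The mimic values were nearly equal and the controls lower, mainly in control library 2. The log2 fold change was 0.16 (-0.05 to 0.37, adjusted p = 0.657 by edgeR with Benjamini-Hochberg). It became 0.06 without control library 2 and 0.28 without control library 1.

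**Figure D2:**
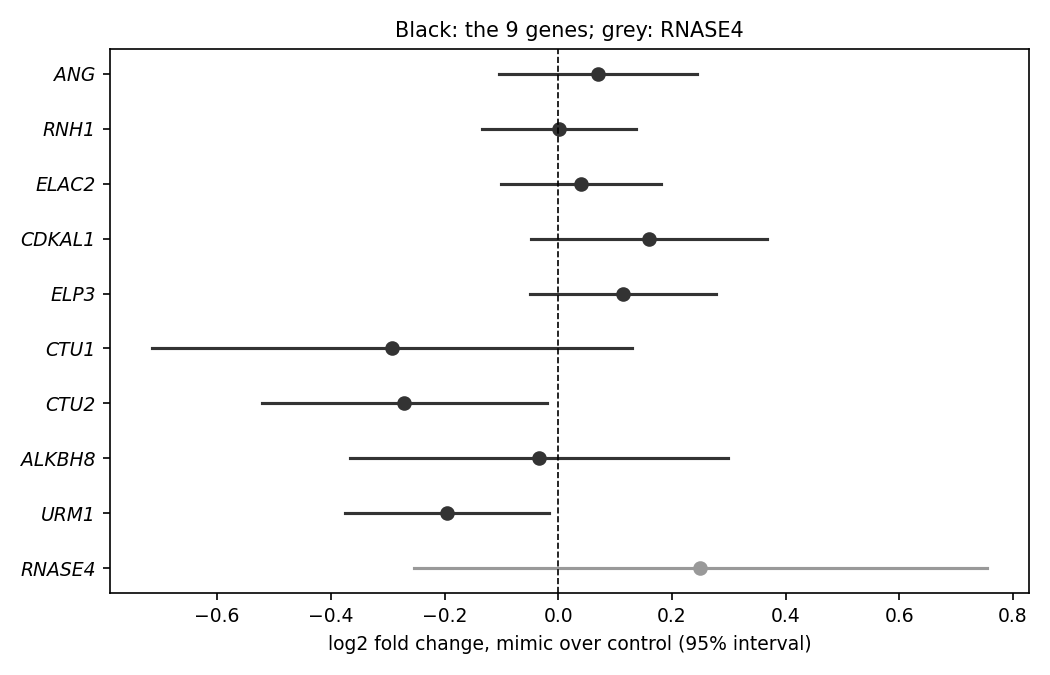
Log2 fold change of mimic over control (points) with 95% intervals from edgeR for the 9 genes (black) and RNASE4 (grey). The intervals of URM1 and CTU2 end just below 0, at -0.02, and neither gene passed after adjustment.

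Per length of exon sequence the members spanned more than a factor of 10. ANG was highest with a mean of 34.4 CPM per kb over the 4 libraries (range 31.2 to 36.6), and ALKBH8 lowest with 2.40 CPM per kb (2.16 to 2.67). RNH1 at 11.3 and ELAC2 at 11.2 CPM per kb could not be ordered, since each was above the other in 2 of 4 libraries. The same held for URM1 at 8.81 and ELP3 at 8.54 CPM per kb. CDKAL1 followed at 6.25 CPM per kb and was above CTU2, at 5.32, in 3 of 4 libraries. CTU2 was above CTU1, at 3.49 CPM per kb, in all 4, although their ranges overlapped. Counted only per kb of exon sequence that no other gene shares on the same strand, ANG stood at 75.6 CPM per kb and URM1 at 10.1. The order of the 9 genes stayed the same, with URM1 (8.90 to 10.96) then reaching into the range of ELAC2 (10.87 to 11.56). By CPM without regard to length, RNH1 was above 81.9% of the 14464 genes tested and ANG above 71.0%. CTU1 was above 34.1%, and the median of all tested genes was 18.9 CPM.

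**Figure D3:**
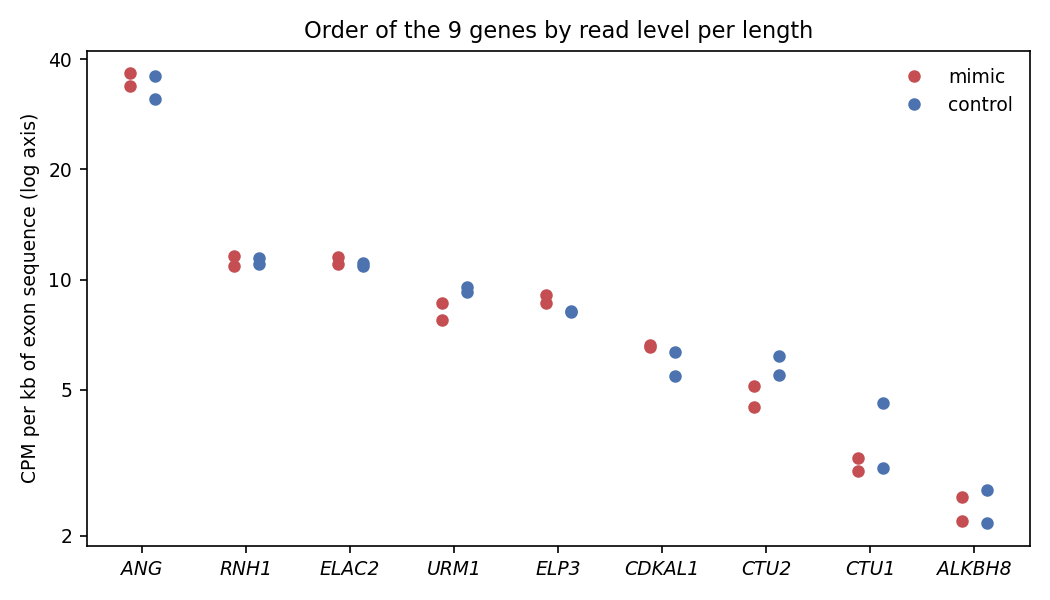
Read level per kb of exon sequence (log axis) of the 9 genes in each mimic and control library, in falling order of the mean. ANG stands at 31.2 to 36.6 CPM per kb, clear of RNH1 and ELAC2 near 11, and 4 of the 8 neighbouring pairs overlap in range.

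The related genes described here number 62 in 8 lists, and 53 of them passed the filter on low counts. Of these 53, 0 passed the test (edgeR; 4 at an unadjusted p under 0.05, 0 called and 1 unadjusted in DESeq2, which gave an adjusted p for 7 of them, and 0 called and 2 unadjusted in limma voom). Over all genes edgeR called 0.346%, and 9.43% had an unadjusted p under 0.05. There were 23 above 0 and 30 below, and the median log2 fold change was -0.03, against 0.00 over all genes tested. By library totals in place of TMM the split was 17 above and 36 below. The medians then moved down together, to -0.05 for these genes and -0.02 over all genes tested. Under TMM 49.6% of all genes tested lay below 0. The matching share by library totals is not given, so the split of 17 and 36 has no background share beside it. Counts, like the medians below, describe the genes listed and do not set them apart from other genes.

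Of the partners of ELP3 in Elongator, ELP2 had a log2 fold change of -0.03, ELP4 of 0.02, ELP5 of 0.16 and ELP6 of -0.01 (adjusted p from 0.684 to 0.994, edgeR, Benjamini-Hochberg). ELP4 and ELP6 belong to the ring that sits on the catalytic part, as does ELP5. ELP5 stood at 30.8 and 32.7 CPM in the mimic libraries, against 25.5 and 31.6 CPM in the control libraries. Only control library 1 was low, and the groups overlapped. KTI12, a regulator of Elongator, and DPH3, an electron donor to it, stood at 0.03 and 0.01. KTI12 had 57 to 77 reads per library and an interval from -0.49 to 0.54. Of its exon sequence 65.9% is shared with other annotated genes on the same strand, so its value is uncertain.

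Genes that work beside the members in the wobble modification did not pass. TRMT112, the partner of ALKBH8 and of other methyltransferases, had a log2 fold change of 0.08. In the sulfur relay, MOCS3, which activates URM1, had -0.26 (95% interval -0.59 to 0.06), the cysteine desulfurase NFS1 -0.05 and the sulfurtransferase MPST -0.05 (adjusted p from 0.642 to 0.932 for these 4, edgeR, Benjamini-Hochberg). MOCS3 stood at 12.4 and 9.32 CPM with the mimic, against 12.3 and 13.4 CPM in the control, where only mimic library 2 was low. The mitochondrial enzymes for the same base of mitochondrial tRNA, MTO1, GTPBP3 and TRMU, lay between -0.08 and 0.02.

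CDKAL1 acts on an adenosine that already carries a threonylcarbamoyl group, and of 7 genes that make this group 0 passed in edgeR and 0 in limma voom. At an unadjusted p under 0.05 there was 1 in edgeR, 1 in limma voom and 1 in DESeq2, against 9.43% of all genes in edgeR; DESeq2 gave none of the 7 an adjusted p. The 1 in edgeR was OSGEP, the catalytic subunit of the complex, with 17.9 and 19.8 CPM in the mimic libraries, against 25.4 and 23.3 CPM in the control libraries. Both mimic libraries lay below both controls. The OSGEP log2 fold change was -0.37 with an interval from -0.60 to -0.13 (unadjusted p = 0.00341, adjusted p = 0.230, edgeR, Benjamini-Hochberg). YRDC, which makes the activated precursor, had -0.17, and the mitochondrial OSGEPL1 -0.21. The median of the 7 was -0.06.

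Of 11 other ribonucleases that are known to cut tRNA in human cells or belong to the family of ANG, 8 did not pass the filter on low counts. RNASE2, RNASE3, RNASE6, RNASE8, SLFN11 and SLFN13 had 0 reads in every library, which allows up to 0.159 CPM in the deepest library and up to 0.196 CPM in the shallowest (3 counts, counting error only). RNASE1 was read only in control library 2, with 3 reads, and RNASE7 had at most 3 reads in any library. ANG was thus the member of the RNase A family with the highest level among those listed. The tested ones were RNASE4, DICER1 and RNASET2. DICER1, the nuclease of microRNA maturation, had a log2 fold change of 0.01. RNASET2, an acid ribonuclease of lysosomes and the secretory route, stood at 103 and 132 CPM with the mimic, against 135 and 148 CPM in the control. Mimic library 1 was well below the other 3 and mimic library 2 just below control library 1. The RNASET2 log2 fold change was -0.26, with an interval from -0.42 to -0.10, and did not pass (unadjusted p = 0.00321, adjusted p = 0.226, edgeR, Benjamini-Hochberg). It was called lower without mimic library 2 (-0.46, adjusted p = 1.64e-05) and without control library 1 (-0.32, adjusted p = 0.00026), and stood at -0.10 without mimic library 1.

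Enzymes that trim, splice and modify the body of tRNA came last. Of 15 tested genes of tRNA end processing 10 were below 0 and the median was -0.16 on the log2 scale. POP1, a subunit of RNase P, had -0.31 (unadjusted p = 0.0454), POP7 of the same enzyme -0.17 and HSD17B10, a subunit of mitochondrial RNase P, also -0.17 (adjusted p from 0.518 to 0.653 for these 3, edgeR, Benjamini-Hochberg). ELAC1, the short form of tRNase Z and paralog of ELAC2, had 7 to 25 reads per library and a log2 fold change of -0.69 with an interval from -1.86 to 0.48. Of 6 genes of tRNA splicing and ligation 3 lay below 0, with a median of -0.06. Of the splicing endonuclease, TSEN15 had -0.22 and TSEN34 -0.15, and the phosphotransferase TRPT1 had -0.14 (adjusted p from 0.513 to 0.901, edgeR, Benjamini-Hochberg), while the ligase RTCB stood at 0.01. With 1 library left out, TSEN15 ran from -0.11 without control library 2 to -0.33 without control library 1. TSEN34 ran from -0.01 without mimic library 1 to -0.33 without mimic library 2. Of 9 genes for other base modifications the median was -0.03. TRDMT1, a cytosine methyltransferase whose mark is known in flies and mice to protect tRNA from cleavage, had -0.54 with an interval from -1.12 to 0.05, METTL1, which makes 7-methylguanosine, had -0.32, and the demethylase ALKBH3 had -0.30 (adjusted p from 0.577 to 0.605, edgeR, Benjamini-Hochberg). TRDMT1 had 33 to 68 reads per library and ran from -0.82 to -0.35 with 1 library left out. NSUN2, another cytosine methyltransferase known to protect tRNA, stood at 0.00. Of these 9 genes 4 lay above 0 and 5 below, and the highest were ALKBH1 at 0.24 and TRMT6 at 0.16.

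**Figure D4:**
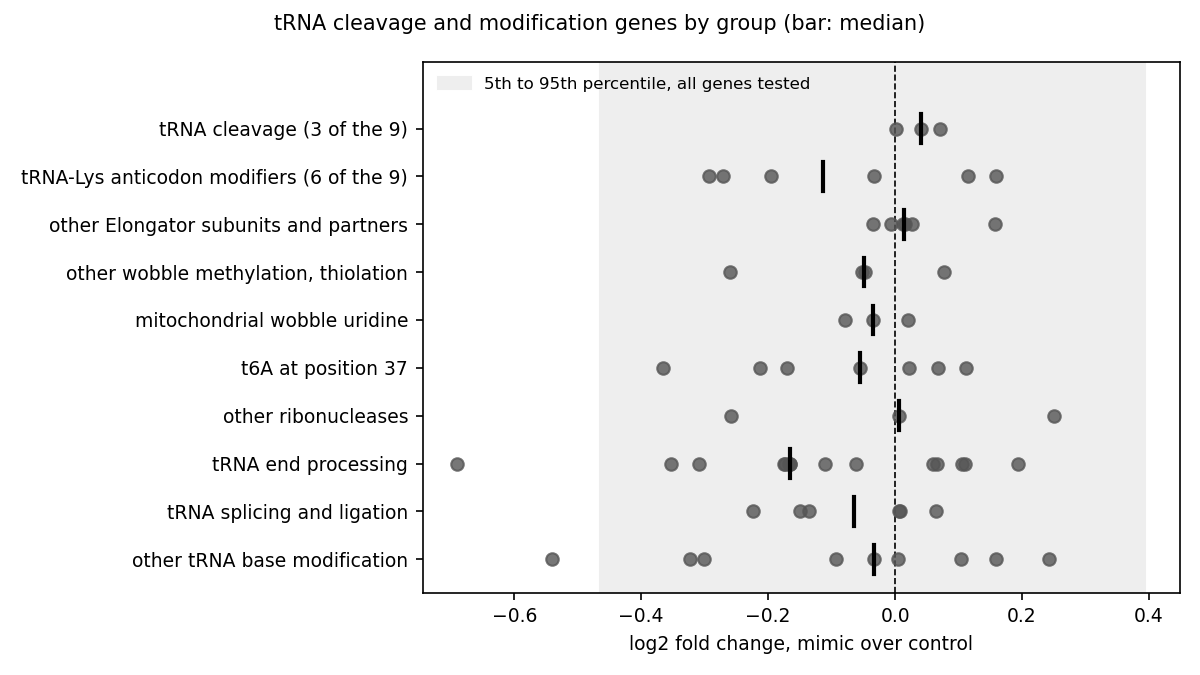
Log2 fold change of mimic over control for each tested gene of the 2 member groups and the 8 related lists; bars are medians, and the grey band spans the 5th to 95th percentile of all genes tested (-0.46 to 0.39). All 9 members lie inside the band, and the lowest points are ELAC1 at -0.69 and TRDMT1 at -0.54.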

How the data were processed

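RNA of 4 Hep G2 samples was sequenced after poly(A) selection with a stranded kit, per the labels' protocols. The authors deposited raw read counts per Ensembl gene; FastQC, Bowtie2, STAR and HTSeq with build GRCh38.p14 are named in the submitters' processing notes, with no versions, annotation release or strand setting stated there, so antisense and overlapping genes are uncertain. The control columns carry the series' abbreviation for the negative control; the other 2 columns were taken as the mimic, and column names tie none to a single sample. Library numbers are those of the columns. The 5 entries that name no gene held 23.1% to 24.1% of each total and were left out. Symbols were found for 62590 IDs.

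Low counts were removed by filterByExpr (10 per library, 15 in total), libraries were scaled with TMM and genes compared by edgeR 4.0.16 in R 4.3.3 (glmQLFit with legacy = FALSE, glmQLFTest), with Benjamini-Hochberg adjustment over 14464 genes. The fit was tested on simulated data. Alternatives used DESeq2 1.42.0, limma 3.58.1, other scaling and filters, and each library left out. Exon lengths and overlaps came from GENCODE 29 on GRCh38, which may differ from the authors' annotation. All members are named, and of each list every called gene and the 3 with the smallest p; genes named beyond these were chosen after their values were seen. Members and lists were chosen with earlier results of these data known. Some genes of the lists are not reported here and are left out of the lists' counts, medians and plot, which therefore do not cover each pathway whole.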

Additional observations from a re-analysis of the deposited data

How the results depend on the processing

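None of the 9 members was called in any of the 12 alternatives; DESeq2 gave no adjusted p for 7 of them, and CTU1 was absent under the filter at a mean of 10 CPM. The number of genes called among all tested, 50, became 32 in DESeq2 and 0 with no filter on low counts (1514 at an unadjusted p under 0.05). It ran from 20 to 424 when 1 library was left out, with 20 lacking mimic library 1, 120 lacking mimic library 2, 424 lacking control library 1 and 22 lacking control library 2; the lone library is then assumed to vary like the other group. Among the related genes described, the number called, 0, ran from 0 to 1 with a library left out, the 1 being RNASET2. With column numbers as a replicate block, added after seeing the data, 306 genes were called, 0 of them members and 1 of them a related gene described here (RNASET2); the titles share no numbers between groups and deviations of same-numbered libraries correlated at 0.03 over genes, so the numbers were not taken as pairs. Some values changed sign without passing a test, most of them close to 0 with all libraries. CTU1 at -0.29 and RNASE4 at 0.25 were not close to 0 and also changed sign. RNH1 was at -0.00094 in DESeq2, -0.018 by library totals, -0.00996 with upper-quartile scaling, -0.00122 with no filter, -0.00674 with the 10 CPM filter, -0.00072 with the block and from -0.049 to 0.043 with a library left out. DPH3 was at -0.0062 by library totals, and DICER1 at -0.013 by library totals, -0.0050 with upper-quartile scaling and -0.00158 with the 10 CPM filter. With a library left out, ANG ran from -0.027 to 0.18, ALKBH8 from -0.18 to 0.13, CTU1 from -0.55 to 0.039, DICER1 from -0.010 to 0.021, DPH3 from -0.13 to 0.16, TRMU from -0.037 to 0.080 and RNASE4 from -0.025 to 0.61. Genes below about 10 CPM, such as CTU1, rest on few reads and have wide intervals.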
